A study of Mus musculus with 16 samples.

Results

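The genes described here are 10 magnesium channels and transporters of the mouse, chosen by name: *Trpm6*, *Trpm7*, *Trpm4*, *Cnnm2*, *Cnnm3*, *Cnnm4*, *Slc41a1*, *Slc41a3*, *Magt1* and *Nipa1*. They are 10 of the 54393 genes in the count table, each symbol matched a single Ensembl identifier, and all 10 were among the 13234 genes that passed the filter on low counts and were tested. In mIMCD3 cells given doxycycline (DOX), the *Magt1* transcript fell by 0.61 on the log2 scale at 3 days and by 0.67 at 6 days, whereas *Slc41a3*, *Cnnm3* and *Cnnm4* rose at 6 days. *Trpm7*, the gene of the 10 with the highest mean level in vehicle-treated cells, differed from vehicle by a log2 fold change of 0.05 at both times and was not called at either.

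Cells hold magnesium at a steady level by balancing entry through channels against extrusion, much of it in exchange for sodium. In the kidney most filtered magnesium is taken back between cells in the thick ascending limb, and the last regulated step is entry through TRPM6 in the distal convoluted tubule, with proteins of the CNNM and SLC41 families placed at the exit side or on organelles. The collecting duct is not regarded as a main site of magnesium reabsorption.

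mIMCD3 is an established line from the inner medulla of a mouse transgenic for SV40, labelled wild type in every group, and all libraries come from this single line. Cells were grown for 10 days on permeable filters in a serum-containing medium with EGF, insulin and hydrocortisone, and then received either the vehicle DMSO or 2 µg/mL DOX, a tetracycline antibiotic used to switch on inducible transgenes, for 3 or 6 days with daily changes of medium. The 4 groups, DMSO 3D, DOX 3D, DMSO 6D and DOX 6D, held 4 libraries of polyadenylated RNA each, with total counts of 16933343 to 23960860. The sources do not say that the replicates were separately started cultures, so p-values measure the spread between these libraries, which may be technical.

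Transcripts of tubule segments other than the collecting duct varied widely between libraries of the same group. CPM values here are counts divided by the library's total as scaled by TMM. The summed CPM of 8 markers of the proximal tubule, thick ascending limb and distal convoluted tubule ran from 14.7 to 64.0 in DMSO 3D, 13.4 to 20.4 in DOX 3D, 9.79 to 69.9 in DMSO 6D and 13.2 to 42.5 in DOX 6D, and the highest sums were in DMSO 6D replicate 2 (69.9), DMSO 3D replicate 1 (64.0) and DMSO 6D replicate 3 (58.7). Member counts without these 3 libraries, or with the sum as a covariate, are given beside the results. All 3 are DMSO libraries, so fits without them compare DOX with fewer DMSO libraries at both times. Of 9 markers of collecting duct principal cells, *Aqp2*, *Aqp4*, *Scnn1b* and *Scnn1g* had fewer than 10 counts in every library, *Aqp3* had 9 to 31 counts, and 2 passed the filter, *Gata3* with 60 to 173 counts and *Hsd11b2* with 4 to 28. The summed CPM of the 9 was 9.27 to 10.2 in DMSO 3D against 5.01 to 6.38 in DOX 3D, and 8.51 to 13.7 in DMSO 6D against 4.05 to 7.06 in DOX 6D, without overlap. Most of this sum was *Gata3*, with a mean CPM of 6.70 in DMSO 3D against 4.01 in DOX 3D and 7.29 in DMSO 6D against 3.71 in DOX 6D. *Aqp3* had a mean CPM of 0.712 in DMSO 3D against 0.763 in DOX 3D and 0.954 in DMSO 6D against 0.785 in DOX 6D. Its ranges overlapped at both times. By edgeR *Gata3* fell at both times (log2 fold change -0.74, adjusted p = 0.00847, and -0.97, adjusted p = 0.000253) and *Hsd11b2* at 6 days (-1.44, adjusted p = 0.0123). The CPM ranges of *Hsd11b2* in DOX and DMSO overlapped at both times. Its highest CPM was 0.847 in DOX 3D and 0.698 in DOX 6D. It therefore passed the filter, a CPM of at least 1 in at least 4 libraries, through DMSO libraries only, which limits what its call shows. The summed CPM of 6 epithelial markers was 2946 to 3157 in DMSO 3D against 2450 to 2591 in DOX 3D, and 2922 to 3383 in DMSO 6D against 2261 to 2372 in DOX 6D, with 2 of the 6 genes called lower at 3 days and 3 at 6 days, where 7.22% and 11.6% of all tested genes were called lower. The part of these marker differences in the results was not tested. Fibroblast markers did not pass the filter, with sums of at most 1.51 CPM, and those of intercalated cells summed to at most 2.99 CPM. Markers of leukocytes and endothelium summed to 17.8 to 21.5 CPM in DMSO 3D against 9.45 to 15.7 CPM in DOX 3D. At 6 days they summed to 14.4 to 17.4 CPM in DMSO 6D against 9.62 to 11.3 CPM in DOX 6D, without overlap at either time. Most of the latter sum was *Csf1r*, with a mean CPM of 16.1 in DMSO 3D, 9.11 in DOX 3D, 13.1 in DMSO 6D and 8.42 in DOX 6D. By edgeR *Csf1r* fell at both times (log2 fold change -0.82, adjusted p = 0.00711, and -0.63, adjusted p = 0.0342). *Pecam1* and *Kdr* were not called at either time, with log2 fold changes of 0.17 and 0.03 at 3 days and -0.75 and -0.44 at 6 days. In bulk RNA, fewer cells of a type and less RNA per cell cannot be told apart.

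Levels were compared between genes in TPM, a unit that divides by transcript length and scales each library to the same sum. Over the 8 DMSO libraries, *Trpm7*, which encodes a widely expressed channel fused to a kinase, had a mean of 23.7 ± 3.41 TPM (SD, n = 8). *Magt1*, which encodes a subunit of the oligosaccharyltransferase that was also described as a magnesium transporter, had 20.1 ± 1.90 TPM, and *Trpm4*, a calcium-activated channel for monovalent cations, 13.9 ± 1.69 TPM. The middle of the range was held by *Slc41a1*, a plasma membrane sodium-magnesium exchanger, with 8.31 ± 0.917 TPM, *Cnnm3* with 7.14 ± 1.62 TPM and *Cnnm2* with 6.91 ± 0.871 TPM. CNNM proteins are membrane proteins linked to magnesium extrusion, and *CNNM2* is a gene of inherited magnesium wasting.

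At the lower end, *Cnnm4* had 4.58 ± 0.587 TPM, *Trpm6* 3.31 ± 0.532 TPM, *Nipa1* 2.83 ± 0.446 TPM and *Slc41a3* 1.13 ± 0.187 TPM. *Nipa1* encodes a magnesium transporter found at the plasma membrane and endosomes, and *Slc41a3* a member of the SLC41 family linked to mitochondrial magnesium export. Not every step in this order was clear of the spread between libraries. *Trpm7* exceeded *Magt1* in 7 of 8 libraries, *Slc41a1* exceeded *Cnnm3* in 6 of 8, *Cnnm3* exceeded *Cnnm2* in 4 of 8 and *Trpm6* exceeded *Nipa1* in 5 of 8, with overlapping ranges. *Cnnm4* exceeded *Trpm6* in 8 of 8 libraries although their ranges overlapped, and at the other 4 steps the higher gene exceeded the next in 8 of 8 libraries with ranges apart. The mean TPM of *Slc41a3* ranked 13035th and that of *Trpm7* 4995th among 53354 genes. The counts behind these levels ran from 25 to 55 per DMSO library for *Slc41a3* and from 1773 to 2678 for *Trpm7*, so the low genes carried more counting error.

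**Figure D1:**
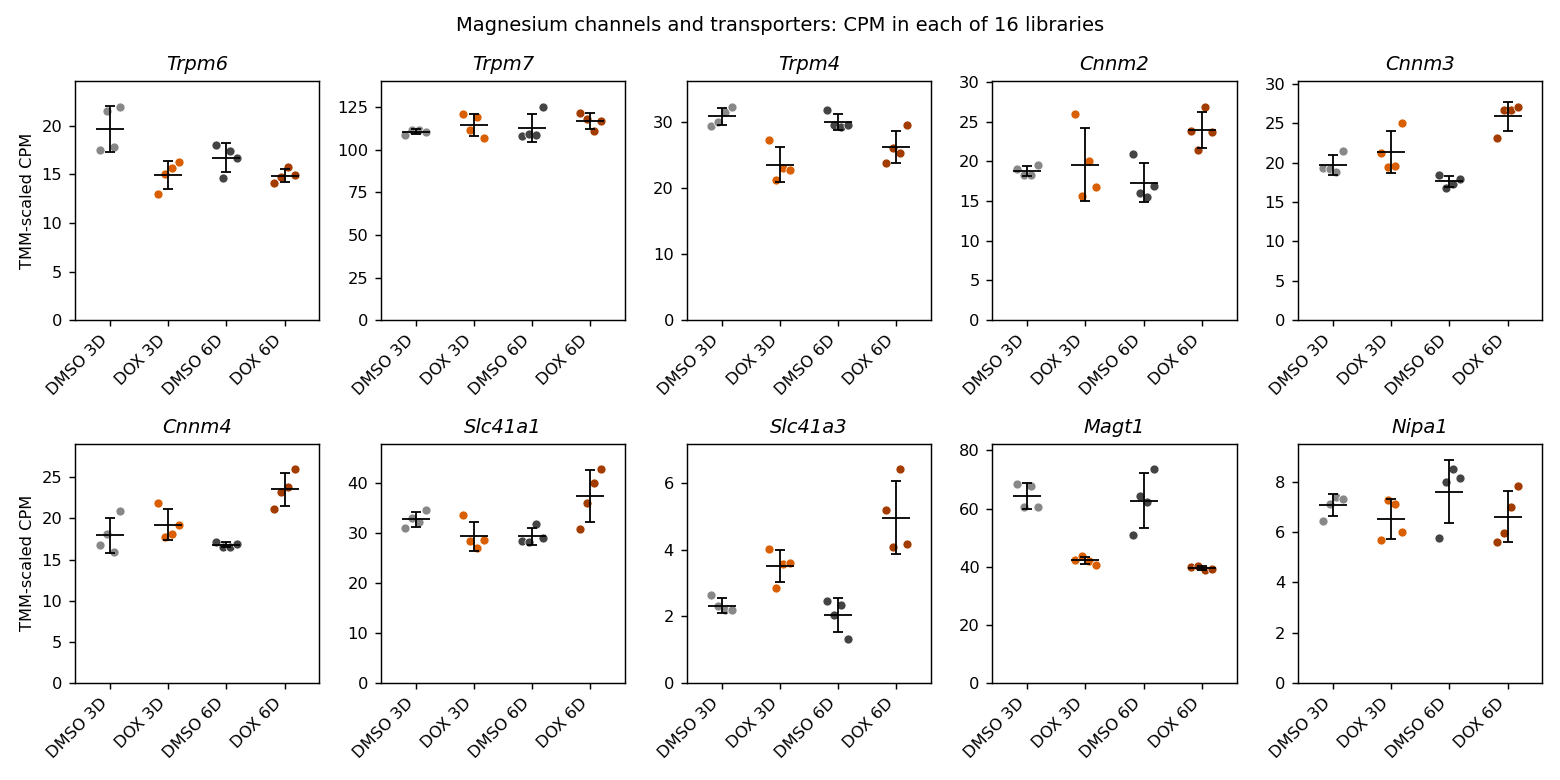
TMM-scaled CPM (y axis, from 0) of the 10 genes in each library (points), by group (x axis), with the group mean and SD (horizontal mark and bars, n = 4). The *Magt1* points of both DOX groups lie below all DMSO points of the same day, and the *Slc41a3*, *Cnnm3*, *Cnnm4* and *Cnnm2* points of DOX 6D lie above all points of DMSO 6D.

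The question at 3 days was which of the genes differ between DOX and vehicle. A gene was called when edgeR's test against a fold threshold of 1.2 gave an adjusted p below 0.05. At 3 days 1 of the 10 genes was called, a fall, where 12.5% of all tested genes were called, 5.30% higher and 7.22% lower. The 10 genes had a median log2 fold change of -0.035, beside 0.0031 over all tested genes. The CPM ranges of the DOX and DMSO libraries did not overlap for 4 genes, *Magt1*, *Trpm6* and *Trpm4* lower and *Slc41a3* higher, and 38.6% of all tested genes were apart in this way. The same count of 1 gene was called without the 3 libraries with most tubule segment transcripts. With that sum as a covariate 3 genes were called, *Magt1*, *Trpm6* and *Trpm4*. Over all 13234 tested genes, 1538 were called without the 3 libraries and 1921 with the covariate, against 1658 in the reported fit.

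*Magt1* lies on chromosome X (GRCm38, 105968084 to 106011906, minus strand). Its CPM was 68.4, 60.5, 67.8 and 60.5 in DMSO 3D and 42.4, 43.6, 42.0 and 40.5 in DOX 3D. At 6 days it was 50.8, 64.4, 62.3 and 73.5 in DMSO 6D and 39.9, 40.3, 39.0 and 39.2 in DOX 6D. Every DOX library was below every DMSO library of its day, and the DOX libraries lay close together while the DMSO 6D libraries were spread widely. The log2 fold change was -0.61 ± 0.080 (SE, n = 4 against 4, adjusted p = 0.000624) at 3 days and -0.67 ± 0.080 (adjusted p = 6.28e-05) at 6 days. *Magt1* was called under all 31 alternatives at both times, with log2 fold changes from -0.80 to -0.46 at 3 days and from -0.75 to -0.58 at 6 days. The difference between the times was -0.06 ± 0.113 (adjusted p = 0.767).

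The sequence upstream of *Magt1* is shown because this gene was the one called at both times. The stretch of 146 bases before the outermost annotated start is from RefSeq's promoter table (GRCm38.p6, chrX:106011907-106012052, minus strand, 5′ to 3′), with the letters CCAAT, on either strand, in capitals. It holds 3 such matches, and 33.8% of 32851 RefSeq promoters hold at least 1 match in the 250 bases before the start.
Magt1: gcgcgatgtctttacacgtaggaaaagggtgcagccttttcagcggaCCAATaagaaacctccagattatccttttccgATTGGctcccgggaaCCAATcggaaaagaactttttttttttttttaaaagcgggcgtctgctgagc

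The other subunits of the oligosaccharyltransferase, the enzyme that attaches sugar chains to new proteins in the endoplasmic reticulum, moved in both directions at 6 days. Of 10 listed genes, all tested, 1 was higher and none lower at 3 days, where 5.30% of all tested genes were higher and 7.22% lower. At 6 days 1 was higher and 3 were lower, where 10.0% of all tested genes were higher and 11.6% lower. *Krtcap2*, the member of that list with the highest TPM, rose at both times, with log2 fold changes of 0.66 ± 0.073 (adjusted p = 6.83e-05) and 0.46 ± 0.073 (adjusted p = 0.00830). *Ostc* fell by 0.55 on the log2 scale at 6 days (adjusted p = 0.00274), *Dad1* by 0.51 (adjusted p = 0.00250) and *Ost4* by 0.49 (adjusted p = 0.00965). *Tusc3*, the paralog that takes the place of MAGT1 in the enzyme, had 84.9 ± 7.02 TPM in DMSO libraries and was not called, with log2 fold changes of 0.20 ± 0.060 at 3 days and -0.08 ± 0.060 at 6 days. The ratio of *Magt1* to *Tusc3* in TPM was 0.241 to 0.265 in DMSO 3D and 0.117 to 0.173 in DOX 3D, and 0.201 to 0.255 in DMSO 6D and 0.133 to 0.145 in DOX 6D, without overlap at either time.

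None of the 3 TRPM channels was called at either time. *Trpm6* encodes the channel-kinase of the distal convoluted tubule and lies on chromosome 19 (18749983 to 18892511, plus strand). Its CPM was 17.5, 21.5, 17.8 and 21.97 in DMSO 3D and 13.0, 15.04, 15.6 and 16.3 in DOX 3D. The groups did not overlap, but the log2 fold change of -0.40 ± 0.091 did not pass the test against the threshold (adjusted p = 0.122). At 6 days the CPM was 18.1, 14.6, 17.4 and 16.7 in DMSO 6D and 14.1, 14.7, 15.7 and 14.97 in DOX 6D. Here the groups overlapped through DMSO 6D replicate 2, the library with the highest tubule segment sum, and the log2 fold change was -0.16 ± 0.092 (adjusted p = 1.00). With that sum as a covariate the 3-day value was -0.45 and passed (adjusted p = 0.0330), and without the 3 libraries it was -0.45 and did not (adjusted p = 0.0584).

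*Trpm4* lies on chromosome 7 (45302632 to 45333780, minus strand). Its CPM was 29.5, 30.1, 31.6 and 32.4 in DMSO 3D and 27.3, 21.2, 23.0 and 22.8 in DOX 3D, without overlap. The log2 fold change was -0.39 ± 0.077 (adjusted p = 0.102), and without DOX 3D replicate 1, the highest DOX library, it was -0.47 and passed (adjusted p = 0.00910). At 6 days the CPM was 31.8, 29.5, 29.2 and 29.5 in DMSO 6D and 23.8, 26.1, 25.3 and 29.6 in DOX 6D, which overlapped only through DOX 6D replicate 4, and the log2 fold change was -0.20 ± 0.076 (adjusted p = 0.961). With the tubule segment sum as a covariate the 3-day value was -0.43 (adjusted p = 0.0284).

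*Trpm7* lies on chromosome 2 (126791565 to 126876230, minus strand). Its CPM was 109, 112, 112 and 111 in DMSO 3D and 121, 111, 119 and 107 in DOX 3D, and 108, 109, 109 and 125 in DMSO 6D and 122, 118, 111 and 117 in DOX 6D. The groups overlapped at both times. The log2 fold change was 0.05 ± 0.056 at each time, with an approximate 95% interval of -0.06 to 0.16, and its sign was negative on the log2(TPM + 1) scale (-0.18 at 3 days and -0.032 at 6 days), on which the median over all genes was -0.15 at 3 days. The ratio of *Trpm6* to *Trpm7* in TPM was 0.139 to 0.171 in DMSO 3D and 0.0863 to 0.137 in DOX 3D, and at 6 days the ranges, 0.107 to 0.148 and 0.102 to 0.118, overlapped. Of the 5 other TRPM genes only *Trpm3* passed the filter, and it was not called at either time (log2 fold change -0.34 ± 0.243 and 0.37 ± 0.2497). *Trpm5*, named after its values were seen, had 0 counts in all 16 libraries, and a count of 0 allows up to 0.177 CPM in the library with the lowest total.

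At 6 days 4 of the 10 genes were called, 3 higher and 1 lower, where 21.6% of all tested genes were called, 10.0% higher and 11.6% lower. The median log2 fold change of the 10 genes was 0.20, beside -0.00064 over all tested genes. The libraries of the 2 treatments did not overlap for 5 genes, *Slc41a3*, *Cnnm3*, *Cnnm4* and *Cnnm2* higher and *Magt1* lower, against 43.0% of all tested genes. Without the 3 libraries with most tubule segment transcripts 3 genes were called, since *Cnnm4* no longer passed, and with that sum as a covariate 4 were called. Over all 13234 tested genes, 2155 were called without the 3 libraries and 2837 with the covariate, against 2856 in the reported fit.

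**Figure D2:**
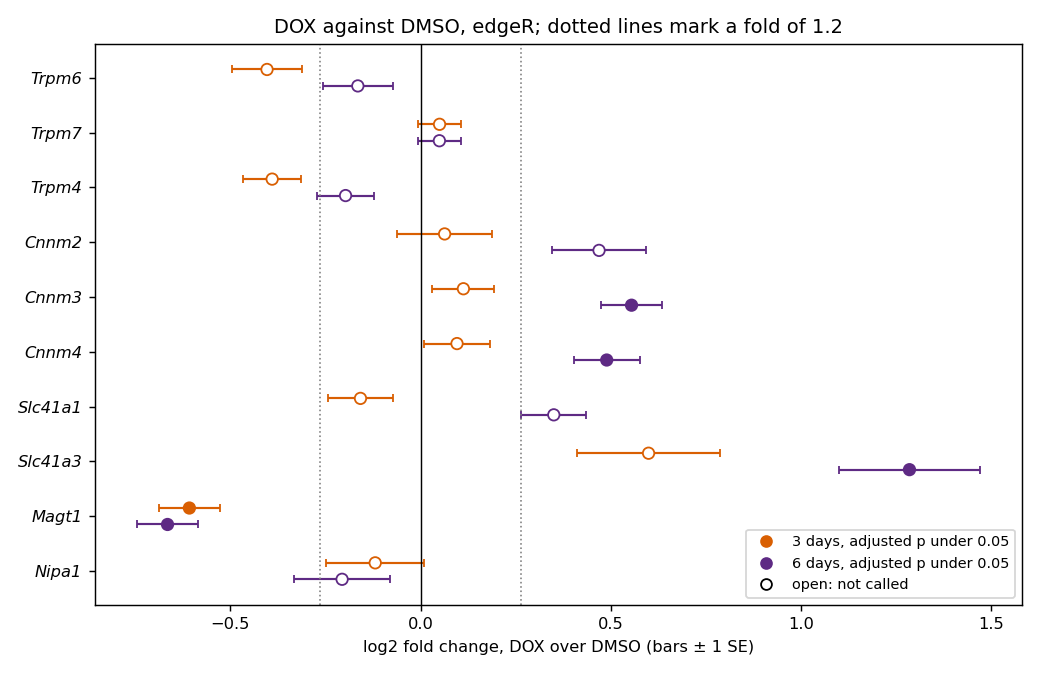
Log2 fold change of DOX over DMSO (x axis) with 1 SE for each gene (y axis) at 3 days (orange) and 6 days (purple), 4 libraries per group. Filled points had an adjusted p below 0.05 in edgeR's test against a fold of 1.2, which the dotted lines mark. *Magt1* is filled on the left at both times, and *Slc41a3*, *Cnnm3* and *Cnnm4* are filled on the right at 6 days.

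*Slc41a3* lies on chromosome 6 (90604725 to 90646412, plus strand). Its CPM was 2.46, 2.02, 2.33 and 1.31 in DMSO 6D and 5.18, 4.07, 6.41 and 4.17 in DOX 6D. All DOX libraries were above all DMSO libraries. In CPM the DOX libraries had the larger SD (1.09 against 0.515), at a higher mean (4.96 against 2.03). The log2 fold change was 1.29 ± 0.186 (adjusted p = 5.26e-05), a fold of 2.44, and this call was kept under all 31 alternatives, which gave 0.76 to 1.40. At 3 days the CPM was 2.63, 2.30, 2.17 and 2.17 in DMSO 3D and 4.01, 2.84, 3.58 and 3.61 in DOX 3D, again without overlap, with a log2 fold change of 0.60 ± 0.188 that was not called (adjusted p = 0.0941). The difference between the times was 0.69 ± 0.266 and did not pass (adjusted p = 0.0779).

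*Slc41a1* was not called at either time. It lies on chromosome 1 (131827493 to 131848865, plus strand), and its CPM was 31.0, 33.03, 32.2 and 34.5 in DMSO 3D and 33.5, 28.3, 26.9 and 28.5 in DOX 3D. At 6 days it was 28.3, 28.1, 31.7 and 29.0 in DMSO 6D and 30.7, 36.0, 39.9 and 42.7 in DOX 6D. The groups overlapped at both times, in DOX through replicate 1 each time. The log2 fold changes of -0.16 ± 0.086 at 3 days (adjusted p = 1.00) and 0.35 ± 0.086 at 6 days (adjusted p = 0.190) were not called, and without DOX 6D replicate 1 the latter was 0.43 and passed (adjusted p = 0.0271). *Slc41a2*, the paralog outside the list of 10, was lower at both times, with log2 fold changes of -0.84 ± 0.212 (adjusted p = 0.0210) and -0.92 ± 0.208 (adjusted p = 0.00572). Its counts were low, from 26 to 87 per library.

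Of the 3 CNNM genes of the list, none was called at 3 days, and *Cnnm3* and *Cnnm4* rose at 6 days. *Cnnm3* and *Cnnm4* are neighbours on the plus strand of chromosome 1, with *Cnnm4* at 36471620 to 36508764 and *Cnnm3* at 36511867 to 36528237, 3102 bases apart. The CPM of *Cnnm3* was 19.4, 19.1, 18.8 and 21.5 in DMSO 3D and 21.2, 19.4, 19.6 and 25.1 in DOX 3D, and these overlapped. At 6 days it was 18.5, 16.8, 17.3 and 17.9 in DMSO 6D and 23.1, 26.6, 26.6 and 27.1 in DOX 6D, which were well apart. *Cnnm3* had a log2 fold change of 0.11 ± 0.081 at 3 days (adjusted p = 1.00) and 0.55 ± 0.081 at 6 days (adjusted p = 0.00139). On the log2(TPM + 1) scale the 6-day value was 0.52 and did not pass (adjusted p = 0.294 by limma). An annotated antisense gene overlaps exons of *Cnnm3*. The libraries were made with a directional kit, but the strand setting of the counting is not given in the sources used here.

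The CPM of *Cnnm4* was 16.7, 18.1, 15.97 and 20.9 in DMSO 3D and 21.9, 17.7, 18.1 and 19.2 in DOX 3D. At 6 days it was 17.1, 16.6, 16.5 and 16.9 in DMSO 6D and 21.1, 23.2, 23.8 and 25.97 in DOX 6D. The groups overlapped at 3 days and were apart at 6 days, where the DMSO libraries lay within 1 CPM of each other. *Cnnm4* had a log2 fold change of 0.10 ± 0.087 at 3 days (adjusted p = 1.00) and 0.49 ± 0.086 at 6 days (adjusted p = 0.0110). This call did not hold with DESeq2 (0.49, adjusted p = 0.110), on the log2(TPM + 1) scale (0.36, adjusted p = 0.855 by limma) or without the 3 libraries with most tubule segment transcripts (0.47, adjusted p = 0.0714). Those 3 are all DMSO libraries, so that fit had fewer DMSO libraries to compare. With the tubule segment sum as a covariate the call held (0.44, adjusted p = 0.0265 by edgeR).

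*Cnnm2* lies on chromosome 19 (46761596 to 46880192, plus strand). Its CPM was 19.0, 18.3, 18.3 and 19.5 in DMSO 3D and 25.9, 15.6, 20.0 and 16.8 in DOX 3D, and 20.9, 16.01, 15.5 and 16.9 in DMSO 6D and 23.9, 21.4, 26.9 and 23.7 in DOX 6D. The DOX 3D libraries fell on both sides of the DMSO range, and at 6 days the groups did not overlap. *Cnnm2* had a log2 fold change of 0.06 ± 0.125 at 3 days (adjusted p = 1.00) and 0.47 ± 0.124 at 6 days, which missed the limit (adjusted p = 0.0695). It passed without DMSO 6D replicate 1, the highest DMSO library (0.57, adjusted p = 0.0164), without DOX 6D replicate 2 (0.52, adjusted p = 0.0454) and without DOX 3D replicate 1 (0.47, adjusted p = 0.0228). It lay farther from the limit without the 3 libraries with most tubule segment transcripts (0.35, adjusted p = 0.414) and with that sum as a covariate (0.40, adjusted p = 0.136).

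The sequences before the starts of *Cnnm3* and *Cnnm4* are shown because these neighbours rose at the same time. Each is the 250 bases before the RefSeq start (GRCm38.p6, plus strand, 5′ to 3′), *Cnnm3* at chr1:36511617-36511866 and *Cnnm4* at chr1:36471347-36471596. Capitals mark GGGCGG (the GC box) and CCAAT on either strand.
Cnnm3: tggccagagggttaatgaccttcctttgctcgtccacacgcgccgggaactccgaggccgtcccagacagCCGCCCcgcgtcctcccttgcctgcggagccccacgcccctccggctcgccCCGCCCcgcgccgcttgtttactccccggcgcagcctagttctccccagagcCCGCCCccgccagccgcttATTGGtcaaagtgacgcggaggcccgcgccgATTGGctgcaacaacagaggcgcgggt
Cnnm4: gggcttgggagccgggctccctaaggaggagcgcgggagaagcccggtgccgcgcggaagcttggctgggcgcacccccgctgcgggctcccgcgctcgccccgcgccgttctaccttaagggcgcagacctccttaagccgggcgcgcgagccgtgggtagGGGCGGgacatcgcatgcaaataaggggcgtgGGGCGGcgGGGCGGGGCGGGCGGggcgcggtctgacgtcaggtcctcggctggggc

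The *Cnnm3* window holds 3 GC boxes and 2 runs of the letters CCAAT, all on the other strand, and the *Cnnm4* window holds 5 GC boxes, all on the gene's strand, of which the last 3 share bases. The share of all 32851 promoters with at least 1 match was 32.7% for the GC box and 33.8% for CCAAT. Neither window holds TATAAA, which 12.4% of promoters hold, or CACGTG, which 6.02% hold. Both windows are rich in G and C, with 70.4% for *Cnnm3* and 75.6% for *Cnnm4* against a median of 52.4% over all promoters. The windows of listed members that were not called also lie above this median, from 54.4% for *Trpm6* to 68% for *Cnnm2*. These matches describe the letters and were not tested for use.

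*Nipa1* lies on chromosome 7 (55977567 to 56019954, minus strand), 15090 bases from its paralog *Nipa2*, and an annotated gene on the opposite strand overlaps its exons. As for *Cnnm3*, the strand setting is not given, so reads of the overlapping genes may not have been told apart. The same limit applies to *Krtcap2*, *Ost4*, *Atp1b1*, *Nipa2*, *Csf1r*, *Gata3* and *Wnk4*, called genes whose exons overlap genes on the opposite strand. Its CPM was 6.43, 7.14, 7.38 and 7.34 in DMSO 3D and 5.71, 7.27, 7.10 and 6.01 in DOX 3D, and 5.76, 8.01, 8.50 and 8.17 in DMSO 6D and 5.63, 5.95, 7.02 and 7.85 in DOX 6D. The groups overlapped at both times, and the log2 fold changes were -0.12 ± 0.129 (adjusted p = 1.00) and -0.21 ± 0.127 (adjusted p = 0.809). The approximate 95% intervals were -0.37 to 0.13 and -0.46 to 0.04, so these libraries do not show that the level was equal.

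Whether the response at 6 days differed from that at 3 days was tested as an interaction in edgeR, without a fold threshold. Of the 10 genes 3 passed, all with a more positive log2 fold change at 6 days, where 17.0% of all tested genes passed and 7.44% passed in this direction. The difference was 0.51 ± 0.122 for *Slc41a1* (adjusted p = 0.00835), 0.44 ± 0.115 for *Cnnm3* (adjusted p = 0.0132) and 0.39 ± 0.123 for *Cnnm4* (adjusted p = 0.0321). The log2 fold change of *Slc41a1* was below 0 at 3 days and above 0 at 6 days. The single times were tested against a fold of 1.2 and this difference was not, and without that threshold *Slc41a1* passed at 6 days as well (0.35, adjusted p = 0.00180). At the fold threshold of 1.2 used for the single times, none of the 3 differences passed (adjusted p = 0.167, 0.263 and 0.423), none passed with limma on TPM, and 1 of the 10 genes, *Slc41a1*, passed with the effective length offset. Without the 3 libraries with most tubule segment transcripts 1 gene passed, *Slc41a1* (0.56, adjusted p = 0.0316), and 1000 of all tested genes passed. The call for *Cnnm4* was lost without any single one of 10 libraries (0.31 to 0.40, adjusted p = 0.0504 to 0.0916): DMSO 3D replicates 2 and 4, DOX 3D replicates 2, 3 and 4, DMSO 6D replicates 2 and 3, and DOX 6D replicates 2, 3 and 4. Without DOX 3D replicate 1 the count was 6 genes, with *Trpm4*, *Cnnm2* and *Slc41a3* added, and without DMSO 6D replicate 1, the library with the lowest tubule segment sum, it was 5, with *Cnnm2* and *Slc41a3* added. Calls over all tested genes rose as well, from 2252 to 3787 without DOX 3D replicate 1 and to 2728 without DMSO 6D replicate 1.

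Vehicle alone gave no call over time. Between DMSO 6D and DMSO 3D 0% of all tested genes were called by edgeR, 172 had an unadjusted p below 0.05 and DESeq2 called 0. The log2 fold changes of the 10 genes ran from -0.25 ± 0.090 for *Trpm6* to 0.11 ± 0.127 for *Nipa1*, with an adjusted p of 1.00 for each.

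Transcript length offers a readout apart from the level. The ratio of estimated count to TPM is proportional to the mean effective length of a gene's transcripts, and it was compared by an exact two-sided permutation test of 4 against 4, whose smallest p is 0.0286. None of the 10 genes reached that p at 3 or 6 days, where 522 and 518 of the 13083 genes compared did. The largest log2 ratio in size was 0.15 for *Trpm4* at 6 days (p = 0.429, exact permutation test). With this smallest p, a single gene could not realistically pass adjustment over the 13083 genes compared, so the result does not show that lengths were equal.

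Of 12 other genes of magnesium transport 11 were tested, with none higher and 2 lower at 3 days and none higher and 3 lower at 6 days, beside shares called of 12.5% and 21.6% over all tested genes, 7.22% and 11.6% lower. The median log2 fold changes were -0.17 and -0.08. *Nipal1*, a paralog of *Nipa1*, had the largest fall, with a CPM of 13.2 to 18.005 in DMSO 3D against 4.66 to 5.68 in DOX 3D and 9.63 to 16.8 in DMSO 6D against 2.45 to 3.04 in DOX 6D. Its log2 fold change was -1.55 ± 0.142 (adjusted p = 2.80e-07) at 3 days and -2.32 ± 0.154 (adjusted p = 4.05e-10) at 6 days. *Nipa2*, next to *Nipa1*, fell by 0.42 on the log2 scale at 6 days (adjusted p = 0.0172), and *Slc41a2* is given above.

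Of 9 partners and regulators 8 were read, since the symbol *Ptp4a1* belongs to more than 1 gene identifier, and all 8 were tested. None was called at 3 days, where 12.5% of all tested genes were called. At 6 days 2 were higher and none lower, where 10.0% of all tested genes were higher and 11.6% lower. *Ptp4a3*, one of the PRL phosphatases that bind CNNM proteins, had a log2 fold change of 0.39 ± 0.082 at 3 days (adjusted p = 0.127) and 0.69 ± 0.081 at 6 days (adjusted p = 4.00e-05). *Arl15*, a small GTPase that also binds CNNM proteins, had 0.42 ± 0.058 at 6 days (adjusted p = 0.00752). *Rack1*, the gene of this list with the highest TPM, was not called (0.38 ± 0.102 and 0.42 ± 0.102).

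Of 21 genes of renal magnesium handling 10 passed the filter, with 3 lower at 3 days, 3 lower at 6 days and none higher at either. Of all tested genes 7.22% and 11.6% were lower at these times, and 5.30% and 10.0% were higher. *Kcnj16*, a potassium channel subunit of the distal tubule, fell by 0.93 on the log2 scale at both times, and *Atp1b1*, the sodium pump's beta subunit and the gene of this list with the highest TPM, fell by 0.87 and 0.65. *Cul3*, a ubiquitin ligase scaffold, was called at 6 days (-0.63 ± 0.068) and *Wnk4*, a kinase that controls distal salt transport, at 3 days (-0.85 ± 0.098). The other 11 genes did not pass the filter.

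**Figure D3:**
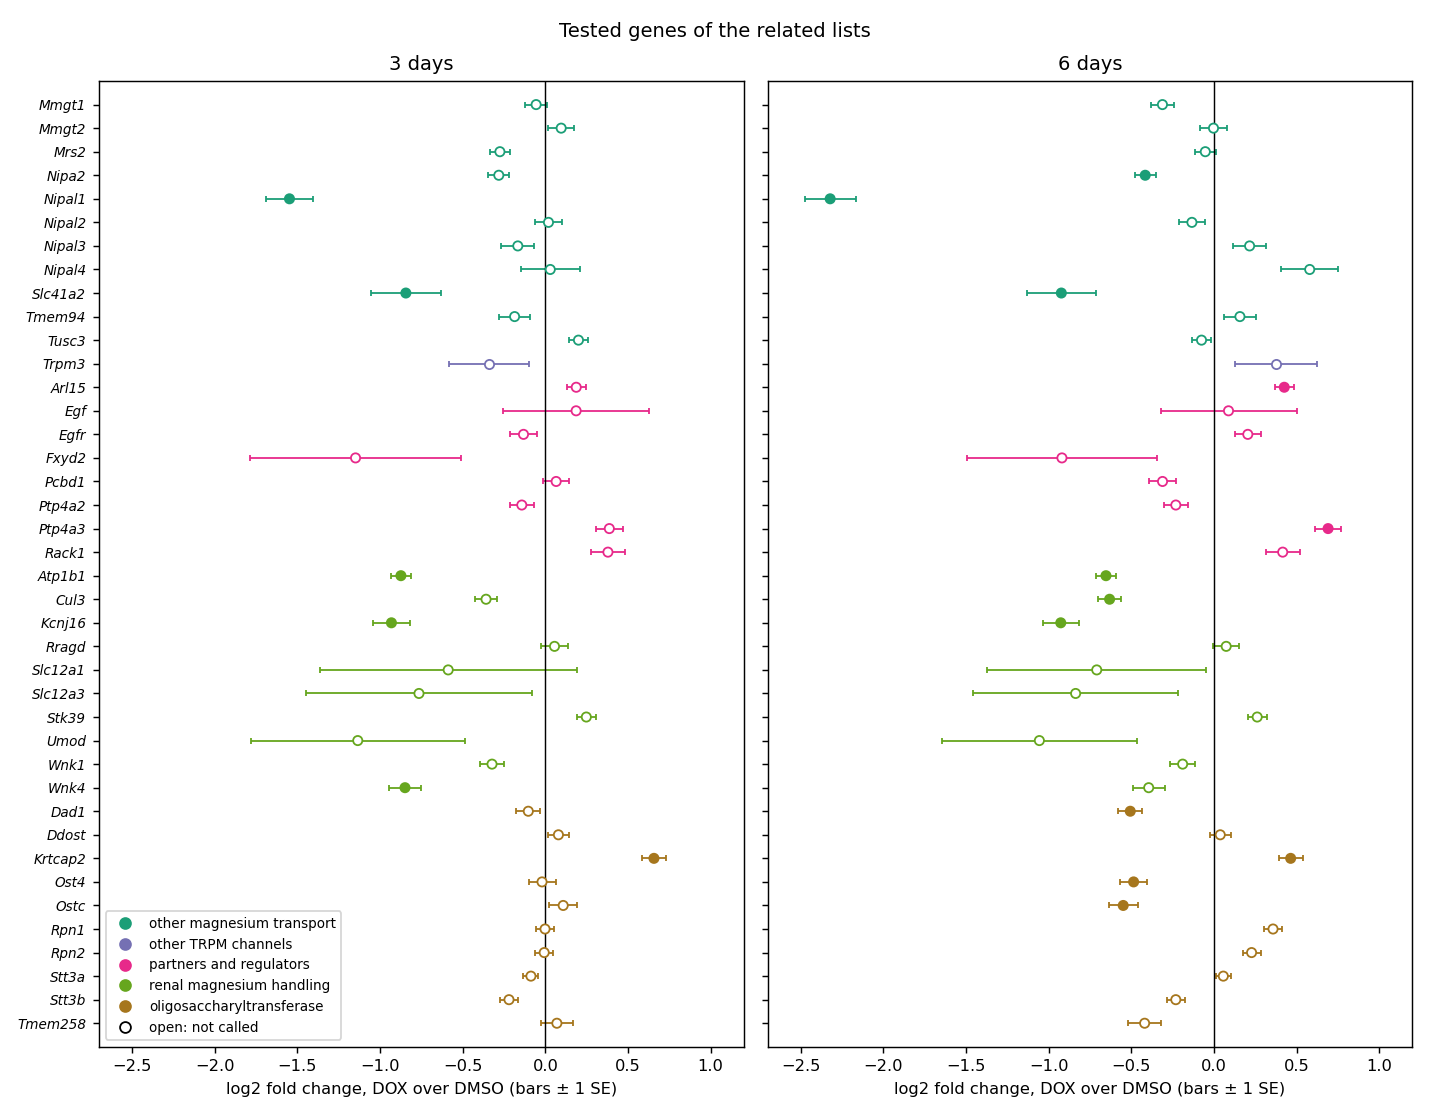
Log2 fold change of DOX over DMSO (x axis) with 1 SE at 3 days (left) and 6 days (right) for the tested genes of 5 related lists (y axis, coloured by list); filled points had an adjusted p below 0.05. *Nipal1* lies farthest to the left at both times, at -1.55 and -2.32.

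For each called gene, the tested genes whose centred log2 CPM lay closest over the 16 libraries were found by root mean square difference. The closest were *Pskh1* (0.0767) and *Plod3* (0.0826) for *Cnnm3*, and *Trim26* (0.0608) for *Cnnm4*. For *Magt1* they were *Baiap2l1* (0.0800) and *Cflar* (0.0871), and for *Slc41a3* they were *Tap1* (0.219) and *Aldh2* (0.222), at a wider distance. The log2 SD of the members themselves was 0.230, 0.219, 0.345 and 0.565 for *Cnnm3*, *Cnnm4*, *Magt1* and *Slc41a3*.

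**Figure D4:**
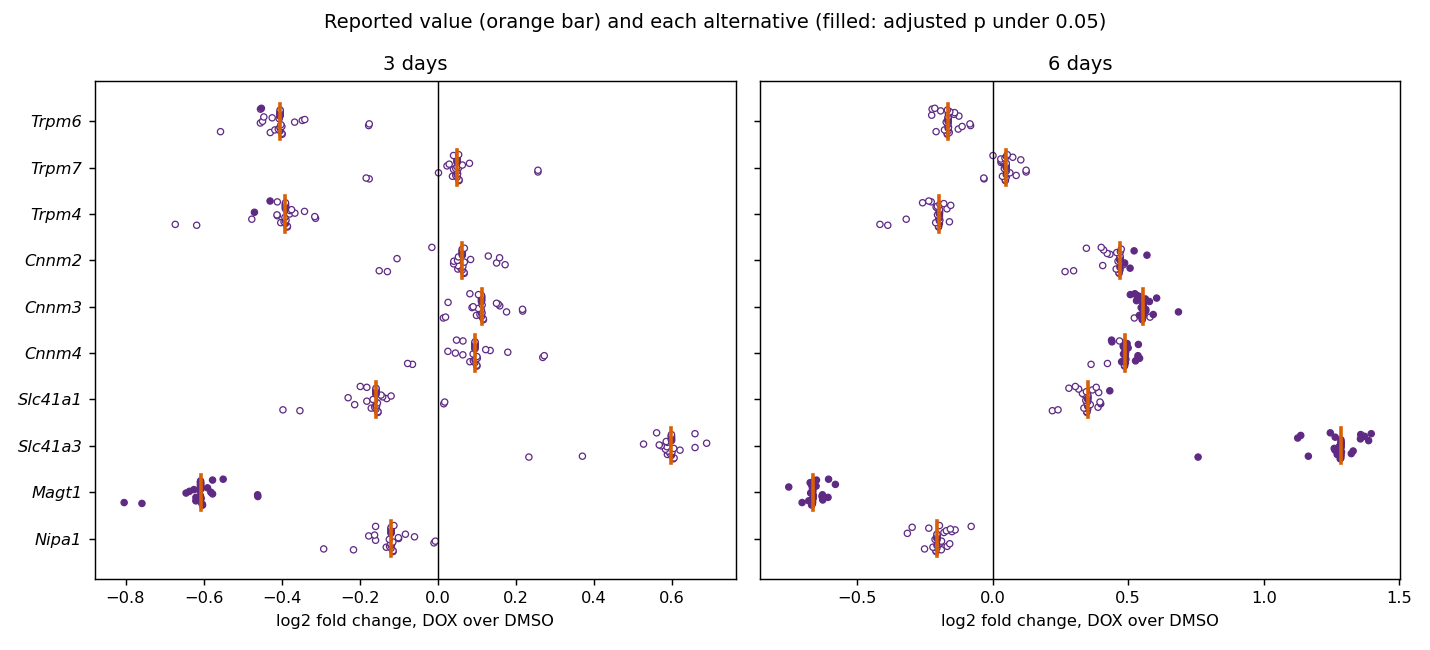
Log2 fold change of DOX over DMSO (x axis) of each gene (y axis) as reported (orange bar) and under each of 31 other settings (circles), at 3 days (left) and 6 days (right); filled circles had an adjusted p below 0.05. All circles of *Magt1* are filled at both times and all of *Slc41a3* at 6 days, while the circles of *Trpm7* lie on both sides of 0.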

How the data were processed

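Polyadenylated RNA of 16 mIMCD3 libraries was measured in 4 groups of 4, taken from the sample labels. Per the labels, reads were aligned by the authors to GRCm38.p6 with STAR 2.6.0c, and transcripts were quantified with salmon. The authors deposited an estimated count per gene, not normalized, and TPM, which are divided by transcript length. TPM depends on the transcripts assigned to a gene, so levels between genes were compared in TPM and treatments in counts.

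Estimated counts were rounded. Genes with a CPM of at least 1 in at least 4 libraries were kept (13234). Counts were scaled by TMM and fitted in edgeR 4.0.16 (R 4.3.3) with a robust quasi-likelihood model over all 16 libraries. DOX was compared with DMSO by glmTreat at a fold of 1.2, two-sided, with Benjamini-Hochberg adjustment over all tested genes and 0.05 as the limit. The interaction was tested by glmQLFTest. The SE was approximated from the quasi-likelihood F statistic, and intervals are 1.96 SE either side. Total counts of 16933343 to 23960860 per library set the precision, and counting error is greatest for *Slc41a3*.

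The 10 genes, the related lists and the markers were chosen with earlier results of these data known. From each other list, the genes called at 3 or 6 days were named, at most the 4 with the largest change at 6 days, with the gene of highest TPM, and 2 alike genes per called member. Marker lists were given as sums and counts, with principal cell markers and the tested markers of leukocytes and endothelium named. The results of 3 genes are not reported here. The tables were joined by Ensembl identifier, and all 54393 identifiers are in GENCODE M21, from which positions were taken. Promoters came from RefSeq, which listed 9 of the 10 genes.

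The alternatives were RLE scaling, DESeq2 1.42.0, limma 3.58.1 on log2(TPM + 1) and log2(TPM + 0.1), no fold threshold, other filters, a fit that is not robust, the 8 libraries of a comparison alone, offsets for transcript length, a replicate block and leaving out each library. The tubule segment covariate and the fit without 3 libraries were added after the data were seen. The calculations were tested on simulated counts.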

Additional observations from a re-analysis of the deposited data

Results flagged for a closer look

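The DOX response of 3 genes differed between 6 and 3 days in edgeR's interaction test: the difference of log2 fold changes was 0.51 for *Slc41a1* (adjusted p = 0.00835), 0.44 for *Cnnm3* (adjusted p = 0.0132) and 0.39 for *Cnnm4* (adjusted p = 0.0321). Of all tested genes 17.0% passed this test, and 7.44% passed with a more positive log2 fold change at 6 days. None of the 3 genes passed at a fold threshold of 1.2 (adjusted p = 0.167, 0.263 and 0.423) or with limma, and only *Slc41a1* passed without the 3 libraries with most tubule segment transcripts. The *Cnnm4* call was also lost with the length trend offset (0.27, adjusted p = 0.107 by edgeR) and when any of several single libraries was left out. In 40 groups of 4 libraries, 3 held a library far from the rest in CPM: *Trpm7* in DMSO 6D replicate 4 (125, above the others), *Trpm4* in DMSO 6D replicate 1 (31.8, above) and *Cnnm3* in DOX 6D replicate 1 (23.1, below). Chance flags about 1 group in 20. The causes were not tested.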

How the results depend on the processing

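*Magt1* at both times and *Slc41a3* at 6 days were called under all 31 alternatives. Of 930 values of single genes, 847 kept direction and side of the limit, 31 lost a call, 24 gained one and 28 changed sign, none of these with an adjusted p below 0.05; where no construction is named, the cause was not tested.

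Among all tested genes, calls at 3 days were 1658, against 1019 with DESeq2, 701 and 909 with limma on log2(TPM + 1) and log2(TPM + 0.1) and 5982 without the fold threshold, and 1366 to 2295 with each library left out. At 6 days they were 2856, against 1962 with DESeq2, 1307 and 1527 with limma on log2(TPM + 1) and log2(TPM + 0.1) and 6702 without the fold threshold. On log2(TPM + 1) the median over all genes was -0.15 at 3 days, and 12.1% of 3-day and 28.8% of 6-day calls were higher, against 42.3% and 46.4% in the reported fit. Over time in DMSO there were 0 calls, 62 without the threshold and 6 without a filter. For the difference between times there were 2252, against 659 and 631 with limma, 183 at a fold threshold of 1.2, 1184 with the effective length offset, 1000 without the 3 libraries and 1369 (without DMSO 3D replicate 4) to 3787 (without DOX 3D replicate 1).

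Of the 10 genes, 1 was called at 3 days, against 4 without the threshold, 3 with the covariate and 1 to 2 with a library left out (2 without DOX 3D replicate 1). At 6 days 4 were called, against 2 and 2 with limma, 7 without the threshold and 4 to 5 with a library left out. For the difference 3 were called, against 0 and 0 with limma, 0 at a threshold of 1.2, 1 with the effective length offset, 1 without the 3 libraries and 2 to 6 with a library left out.

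Signs changed for *Trpm7* with limma (-0.18 and -0.18 at 3 days, -0.032 and -0.033 at 6 days, 0.14 and 0.15 for the difference) and for its difference without a filter (0.040), with the effective length offset (0.061) and with a library left out (-0.032 to 0.053). They changed for *Cnnm2* at 3 days with limma (-0.13 and -0.15), with the covariate (-0.015) and with a library left out (-0.10 to 0.16), for *Cnnm4* at 3 days with limma (-0.064 and -0.077), and for *Slc41a1* at 3 days with the length trend offset (0.016, and 0.018 with the block). They changed for the difference of *Magt1* with limma (0.092 and 0.10), with the effective length offset (0.011) and with a library left out (-0.15 to 0.027), and for that of *Nipa1* with limma (0.026 and 0.040) and without the 3 libraries (0.079).

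The replicate numbers gave no pairing, since the mean correlation of same-numbered libraries' deviations was -0.0955 in the 3-day groups and -0.121 in the 6-day groups. With the replicate block 1570, 2767, 0 and 1768 genes were called at 3 days, at 6 days, over time in DMSO and for the difference, and 1, 5 and 3 of the 10 genes, *Cnnm2* at 6 days being added (0.47, adjusted p = 0.0388).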
